A study of Danio rerio with 19 samples.

Results

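The genes dkk3b (ENSDARG00000070683) and wnt7bb (ENSDARG00000071107) encode secreted proteins of the Wnt pathway, and their transcripts were followed through 4 populations of sorted zebrafish islet cells. They are 2 of the 31901 gene IDs in the count tables. Both were selected on their measured levels in these populations, which differ between them, so the levels are given as a description and were not tested. RNA was sequenced from 19 libraries to compare cells that express insulin, somatostatin or both. All fish carried Tg(sst1.1:eGFP), which drives GFP from a short fragment of the sst1.1 promoter, and Tg(ins:NTR*-P2A-mCherry), which drives a nitroreductase and mCherry from the insulin promoter. The bihormonal cells (6 libraries, GFP+ and mCherry+) were sorted 20 days after an 18 h exposure to 2.5 µM nifurpirinol (NFP), a prodrug that the nitroreductase turns toxic and that ablates β-cells. The β-cells (7 libraries, mCherry+), the GFPhigh cells (3 libraries) and the GFPlow cells (3 libraries) came from control fish given 0.16% DMSO, for which the series' design text also states 20 days. Males and females of 6 to 10 months were used, and each library pooled the main islets of 2 to 4 fish. The sst1.1 reporter is also active in sst2 δ-cells, and ablation history and cell identity cannot be told apart between bihormonal cells and the other populations.

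Wnt ligands are lipid-modified proteins that leave the cell with the carrier Wntless and bind Frizzled receptors, often together with the co-receptor Lrp6, on the same or neighbouring cells. In the canonical branch, binding stops a complex of Axin, Apc and Gsk3 from marking β-catenin for degradation, and β-catenin then works with TCF factors in the nucleus. Dickkopf proteins are secreted modulators of this pathway. The founding members block Lrp6 together with Kremen receptors, while Dkk3 is a divergent member whose effect on Wnt signalling depends on the context. Wnt7b is a ligand that acts through Frizzled receptors and, in brain endothelium of mouse and zebrafish, through the co-receptors Reck and Adgra2.

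The sorted populations were checked with their hormone transcripts, as normalized counts. These are raw counts divided by the library's total times a composition factor, then multiplied by 11028827, the mean of these products. The normalized counts of a library need not sum to 11028827, so they are not shares of its reads. Total counts ranged from 5599246 to 18077658 per library. The somatostatin gene sst1.1 averaged 5654600 in GFPhigh and 7266600 in bihormonal cells, against 463960 in GFPlow and 13934 in β-cells. The insulin gene ins averaged 2571400 in β-cells, 437840 in bihormonal cells, 5953 in GFPlow and 2996 in GFPhigh cells. The second somatostatin gene, sst2, averaged 1719400 in GFPlow cells and at most 28210 elsewhere. The δ-cell transcription factor gene hhex averaged 483 to 642 in the 3 GFP+ populations and 1.86 in β-cells. Markers of other islet and pancreatic cell types were also counted, and some of them were higher in GFPlow. The ε-cell hormone gene ghrl averaged 46596 in GFPlow and 299 to 530 in the other populations. The 4 α-cell markers were not particular to GFPlow. They summed to 18757 to 36633 in GFPlow, 5250 to 91560 in bihormonal, 9555 to 16737 in β-cells and 106 to 5849 in GFPhigh cells. All 4 duct markers had a median of at least 10 in GFPlow, with a sum of 4107 to 5195, against 16.2 to 470 in the other populations. Most of that sum was anxa4, an annexin gene, with a mean of 4512 in GFPlow, while the chloride channel gene cftr averaged 51.4, krt4 20.9 and the claudin gene cldn3d 94.5. GFPlow cells were gated on GFP, and the part of other cell types in these transcripts was not tested. The 14 acinar markers summed to 174 to 5112 in GFPlow and to at most 1003 elsewhere. The 7 endothelial markers summed to at most 16.9 in any library.

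The Dickkopf gene dkk3b was an abundant transcript of the cells that express sst1.1. It took a mean of 1.18% ± 0.20 (SD, n = 3) of all counts in GFPhigh and 1.2% ± 0.257 (SD, n = 6) in bihormonal cells, but 0.374% ± 0.179 (SD, n = 3) in GFPlow and 0.0843% ± 0.0412 (SD, n = 7) in β-cells. In GFPhigh cells dkk3b had 139960, 137390 and 152350 normalized counts, a mean of 143230 ± 8002 (SD, n = 3). In bihormonal cells it ran from 108760 to 316700, with a median of 164640 and a mean of 183700 ± 72342 (SD, n = 6). These ranges overlapped, with a ratio of means of 1.28, so the order of the upper pair of populations is within their spread (over all genes, 11.3% did not overlap between them). In GFPlow cells dkk3b had 15891, 32782 and 44126 normalized counts, a mean of 30933 ± 14208 (SD, n = 3). In β-cells it ran from 2885 to 12770, with a median of 8637 and a mean of 7926 ± 4163 (SD, n = 7). Every GFPlow library lay above every β-cell library, by 1.24-fold at the closest point, and below every GFPhigh and bihormonal library.

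The means of dkk3b were 18.1-fold higher in GFPhigh than in β-cells, 23.2-fold higher in bihormonal than in β-cells, 4.63-fold higher in GFPhigh than in GFPlow cells and 5.94-fold higher in bihormonal than in GFPlow cells. GFPlow exceeded β-cells by 3.90-fold. The ranges did not overlap in any of these 5 pairs. Over all 14693 genes tested, groups did not overlap for 22.4% of genes between GFPhigh and β-cells, 9.07% between bihormonal and β-cells, 38.6% between GFPhigh and GFPlow, 23.8% between bihormonal and GFPlow and 26.2% between GFPlow and β-cells. Nothing is read from this for dkk3b, since these contrasts chose it. The lowest GFPhigh library was 10.8 times the highest β-cell library, and the lowest bihormonal library 8.52 times.

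The ligand gene wnt7bb ran the other way between the GFP fractions. In GFPlow cells it had 405, 502 and 361 normalized counts, a mean of 423 ± 72.4 (SD, n = 3). In GFPhigh cells it had 12.1, 21.2 and 27.4, a mean of 20.2 ± 7.68 (SD, n = 3). In bihormonal cells it ran from 16.3 to 42.3, with a mean of 30.2 ± 12.4 (SD, n = 6), and in β-cells from 31.2 to 93.5, with a mean of 56.3 ± 26.5 (SD, n = 7). The raw counts behind these values were 253 to 518 per library in GFPlow, 38 to 148 in β-cells, 7 to 50 in bihormonal and 10 to 26 in GFPhigh cells, so the lower populations rest on few reads. The GFPlow mean was 20.9-fold above GFPhigh, 14.0-fold above bihormonal and 7.51-fold above β-cells, and no GFPlow library overlapped any other. The lowest GFPlow library was 3.86 times the highest β-cell library. β-cells and GFPhigh cells did not overlap either, with a ratio of means of 2.78, although their nearest libraries differed by only 1.14-fold. Over all genes tested, 38.6% did not overlap between GFPhigh and GFPlow and 23.8% between bihormonal and GFPlow. The share was 26.2% between GFPlow and β-cells and 22.4% between GFPhigh and β-cells. Nothing is read from the lack of overlap for wnt7bb, since it too was selected on its levels. β-cells overlapped bihormonal cells (1.87-fold by means), and bihormonal overlapped GFPhigh cells (1.49-fold), so these neighbours in the order lie within their spread when all libraries are pooled. In both library sets that hold β-cells and bihormonal cells, β-cells were higher, as given with the sets.

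**Figure D1:**
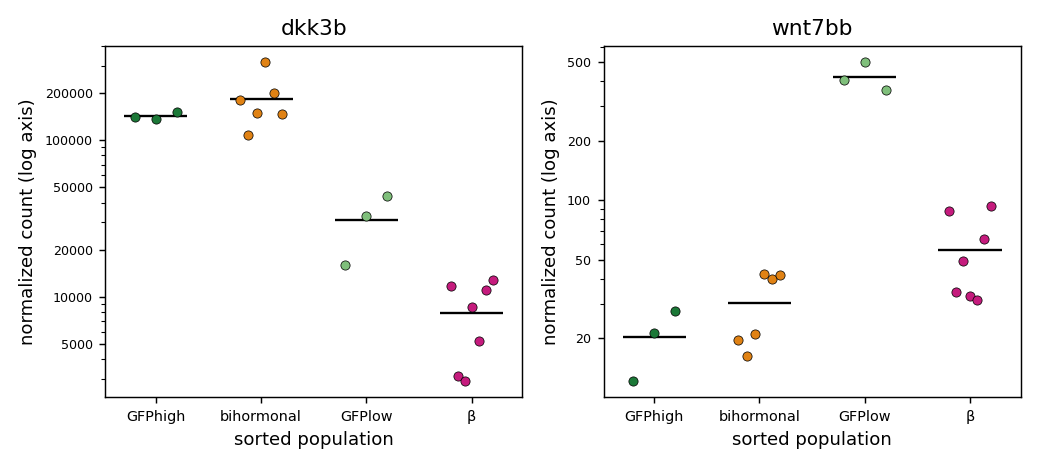
Normalized counts (log axis) of dkk3b and wnt7bb in each library, by sorted population, with horizontal lines at the group means. The dkk3b points of GFPhigh and bihormonal cells lie at 108760 or higher, and the wnt7bb points of GFPlow cells lie above 360 while those of every other population stay below 94.

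The order of the population means was the same for both genes under 3 ways of scaling. With TMM, with DESeq2's size factors and with library totals alone, dkk3b fell from bihormonal through GFPhigh and GFPlow to β-cells, and wnt7bb from GFPlow through β-cells and bihormonal to GFPhigh cells. The ratio of the highest to the lowest mean moved from 23.2 to 23.6 and 14.2 for dkk3b, and from 20.9 to 21.3 and 30.4 for wnt7bb. On library totals the bihormonal mean of dkk3b was 133290 and the GFPhigh mean 131670.

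Ratios of raw counts within a library need no scaling between libraries, and only their change between populations is read, since the genes differ in length. There were 5566 to 11563 dkk3b reads for each wnt7bb read in GFPhigh and 3514 to 9172 in bihormonal cells, against 39.3 to 122 in GFPlow and 58.3 to 262 in β-cells. The upper and lower pairs of populations did not overlap, and within each pair they did. Nothing is read from this separation, since both genes were selected on their levels. The lowest bihormonal library held 13.4 times the ratio of the highest β-cell library.

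The dkk3b signal was then set against sst1.1, the leading hormone transcript of GFPhigh cells. For each 1000 sst1.1 reads there were 18.6 to 34.1 dkk3b reads in GFPhigh and 17.1 to 50.8 in bihormonal cells. The ratio was 57.3 to 77.6 in GFPlow and 197 to 1986 in β-cells, so every β-cell library held at least 5.79 times as many dkk3b reads per sst1.1 read as any GFPhigh library. The denominator is low and varied in β-cells, with 2635 to 56604 normalized counts of sst1.1, against 4474000 to 7391600 in GFPhigh. Another list also followed dkk3b across the populations. The 6 neural and glial markers summed to 2483 to 2691 in GFPhigh, 1965 to 7301 in bihormonal, 775 to 1647 in GFPlow and 71.9 to 518.6 in β-cells. Most of that sum was plp1b, a myelin proteolipid gene, while mbpa, a defining myelin gene, was at 0 in all 19 libraries. The part of these cells in dkk3b was not tested.

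For wnt7bb the corresponding reference was sst2, the leading hormone of the GFPlow libraries. There were 0.249, 0.239 and 0.253 wnt7bb reads for each 1000 sst2 reads in the 3 GFPlow libraries, a narrow range. The ratio was 0.565 to 1.04 in GFPhigh, 1.07 to 31.7 in bihormonal and 9.03 to 63.1 in β-cells, all above GFPlow. Here too the denominator differs, as sst2 had 785 to 7066 normalized counts in β-cells and 1428800 to 2101900 in GFPlow. Like wnt7bb, the ghrl and duct transcripts were higher in GFPlow than in the other populations. Across GFPlow replicates 1, 2 and 3 ghrl had 61714, 34517 and 43557 normalized counts and the duct markers summed to 4734, 5195 and 4107, while wnt7bb had 405, 502 and 361. Among these 3 libraries wnt7bb had the same order as the duct sum and as sst2 (1627500, 2101900 and 1428800), and ghrl was lowest where wnt7bb was highest. The acinar sum was 5112, 2733 and 174 in the same libraries. Nothing is read from an order among 3 libraries. The parts of ε-cells, duct cells and acinar cells in the wnt7bb level were not tested. In bulk samples fewer cells of a type and less RNA per cell cannot be told apart.

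**Figure D2:**
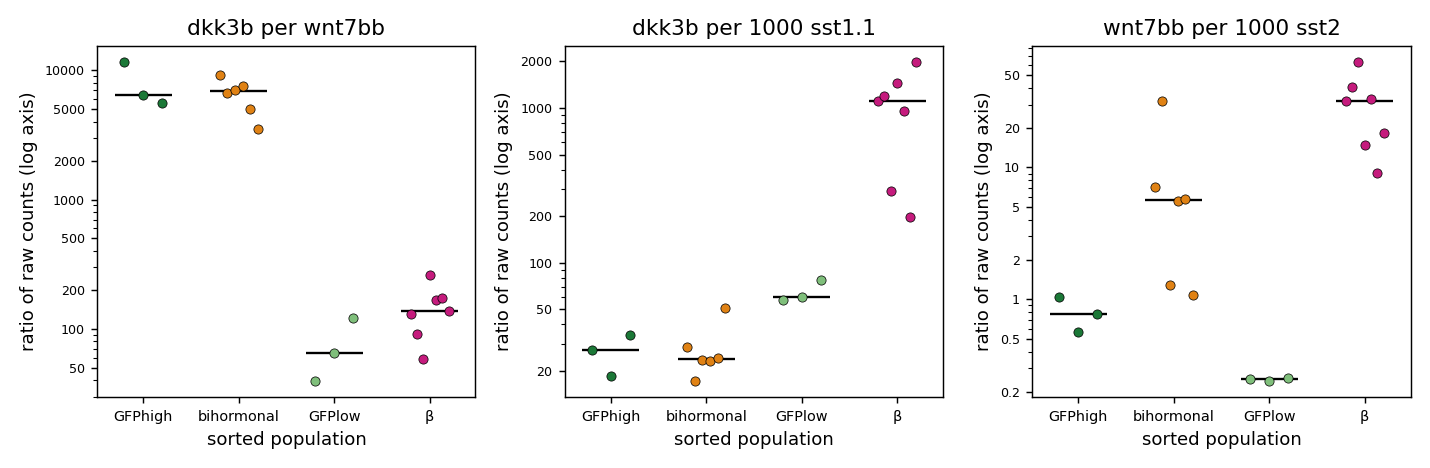
Ratios of raw counts within each library (log axes), by sorted population, with horizontal lines at the medians: dkk3b reads per wnt7bb read, dkk3b reads per 1000 sst1.1 reads and wnt7bb reads per 1000 sst2 reads. The first ratio is 3514 or more in GFPhigh and bihormonal cells and 262 or less in the other populations.

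Libraries fall into 6 sets of neighbouring library numbers, and the differences were read again within the sets that hold more than a single population. For dkk3b, set 3 held 200800 and 316700 in bihormonal cells and 11669 in β-cells. In set 4, GFPlow cells had 32782 and 44126 and β-cells 2885 and 3139. In set 5, GFPhigh cells had 137390 and 139960 and β-cells 5229 and 8637. In set 6, GFPhigh cells had 152350, bihormonal cells 146670 and β-cells 11151 and 12770. Within these sets dkk3b was higher in bihormonal, GFPhigh or GFPlow cells than in β-cells. GFPlow cells share no set with GFPhigh or bihormonal cells, so those differences could not be read within a set, for dkk3b or for wnt7bb. They are linked across sets only through β-cells, which share set 4 with GFPlow, sets 5 and 6 with GFPhigh and sets 3 and 6 with bihormonal cells. The part of the sets in those differences was not tested.

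For wnt7bb the levels of a population differed between sets. Bihormonal cells had 16.3 to 21.1 in set 1, which holds no other population, and 40.0 to 42.3 in sets 3 and 6, without overlap. β-cells had 31.2 to 49.5 in sets 4 and 5 and 63.8 to 93.5 in sets 3 and 6. Where both populations were in the same set, β-cells were higher: 88.8 against 40.0 and 42.3 in set 3, and 63.8 and 93.5 against 41.7 in set 6. The values that overlap in the pooled reading are those of bihormonal cells in sets 3 and 6 and of β-cells in sets 4 and 5. Each shared set holds only 1 or 2 libraries of either population, so no conclusion is drawn from it. In set 5 β-cells had 31.2 and 32.9 and GFPhigh cells 12.1 and 21.2, and in set 4 GFPlow cells had 361 and 502 and β-cells 34.2 and 49.5. In set 6 the GFPhigh library had 27.4. What the library numbers stand for is not stated in the labels, and their part in these levels was not tested.

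Over all 19 libraries the log2 levels of dkk3b and wnt7bb had a Pearson r of -0.31, a description over libraries that fall into 4 populations. Within the 7 β-cell libraries r was 0.65 (exact permutation p = 0.113, adjusted p = 0.144 over 2 relations) and Spearman's rho 0.68 (exact permutation p = 0.11, adjusted p = 0.219). Without the pair of β-cell libraries farthest from the median of dkk3b, both of set 4, r was 0.88. Within the 6 bihormonal libraries r was 0.65 (exact permutation p = 0.144, adjusted p = 0.144) and rho 0.60 (exact permutation p = 0.242, adjusted p = 0.242), and r fell to 0.10 without the corresponding pair. Neither relation passed. Each adjustment covered the 2 relations of a single statistic. The permutations exchanged libraries across the library sets, which run through both relations, so no conclusion is drawn from these p-values.

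Each gene has a close paralog, and the paralogs did not follow them. The other Dickkopf-3 gene, dkk3a (ENSDARG00000103591), had 73.7, 37.8 and 58.5 normalized counts in GFPlow cells, 0 to 1.21 in GFPhigh, 0 to 3.33 in bihormonal and 0 to 7.09 in β-cells. All GFPlow libraries lay above all others, where dkk3b was lower than in GFPhigh cells. For GFPhigh over GFPlow its log2 fold change was -6.80 with a standard error of 1.33 (edgeR quasi-likelihood, Benjamini-Hochberg adjusted p = 0.000992 over all genes). GFPhigh held a single dkk3a read against 141 in GFPlow, a ratio of 144.5 for GFPlow over GFPhigh with a 95% exact counting interval of 25.5 to 5748. The log2 fold change was -8.84 without GFPhigh replicate 1, which held that read. The founding-type Dickkopf genes dkk1a, dkk1b and dkk2 averaged at most 1.38 in any population and were not tested.

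The paralog wnt7ba (ENSDARG00000022858) overlapped among the GFP+ populations, with 44.8, 0 and 31.6 normalized counts in GFPhigh, 35.0, 37.8 and 18.5 in GFPlow and 5.12 to 46.4 in bihormonal cells. In β-cells it had 4.88 to 19.7. It was called in none of the 4 comparisons, with an adjusted p of 0.867 between GFPhigh and GFPlow, where wnt7bb differed 20.9-fold by means. The log2 fold change of wnt7ba was 1.47 between bihormonal and β-cells (adjusted p = 0.106) and 1.52 between GFPhigh and β-cells (adjusted p = 0.121). The former was called in a fit of only these 2 populations (1.47, adjusted p = 0.041), and the latter was 0.85 without GFPhigh replicate 1 and was called without GFPhigh replicate 2 (2.10, adjusted p = 0.0166). Of a pair of genes matched to the human symbol WNT7A, ENSDARG00000002483 was at 0 counts in all 19 libraries. The other, ENSDARG00000044827, had 403 normalized counts in bihormonal replicate 5 and at most 2.50 in every other library.

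The co-receptor genes for Wnt7 ligands were unlike each other. The gene adgra2 averaged at most 0.393 in any population. The gene reck (ENSDARG00000090039), which codes for a membrane-anchored protein, had 237, 522 and 160 normalized counts in GFPhigh, 272, 442 and 387 in GFPlow, 79.4 to 181 in bihormonal and 32.2 to 110 in β-cells. It was higher in GFPhigh than in β-cells by 2.20 on the log2 scale (standard error 0.351, adjusted p = 9.58e-05), or by 1.58 without GFPhigh replicate 2. GFPlow libraries, the highest for wnt7bb, overlapped GFPhigh libraries for reck, and the log2 fold change of GFPhigh over GFPlow was -0.26 (adjusted p = 0.728).

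**Figure D3:**
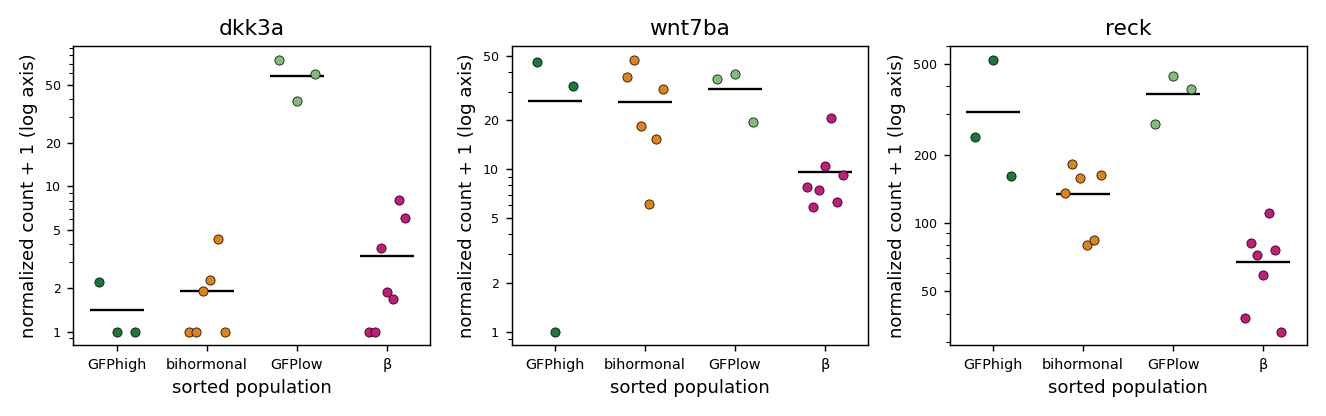
Normalized counts plus 1 (log axes) of the paralogs dkk3a and wnt7ba and of the Wnt7 co-receptor gene reck in each library, by sorted population, with horizontal lines at the group means. The 3 GFPlow points of dkk3a lie above all others, and the wnt7ba points of the GFP+ populations overlap.

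The rest of the Wnt pathway was read from a list of 116 symbols, of which all but 3 were matched, giving 114 gene IDs with dkk3b and wnt7bb included. Of the other 112 gene IDs, 57 passed the filter of a mean normalized count of at least 10 and were tested. A call here means more than a fold of 2 and an adjusted p under 0.05. Between GFPhigh and GFPlow cells 8 list genes were higher in GFPhigh and 9 higher in GFPlow, which is 29.8% of the list beside 15.7% of all genes tested (7.86% higher in GFPhigh and 7.83% higher in GFPlow). Some of the 9, named with the filter below, were tested only because they were high in GFPlow. The median log2 fold change was -0.09 for the list and -0.04 for all genes. Between GFPhigh and β-cells 13 were higher in GFPhigh and 3 in β-cells, 28.1% beside 18.1% of all genes (10.4% higher in GFPhigh and 7.7% in β-cells), with medians of 0.22 and -0.11. Between bihormonal and β-cells 8 were higher in bihormonal and 2 in β-cells, 17.5% beside 13.2% (7.39% higher in bihormonal and 5.76% in β-cells), with medians of 0.02 and 0.00050. Between bihormonal and GFPhigh cells 2 were higher in each, 7.02% beside 2.76% (1.42% higher in bihormonal and 1.34% in GFPhigh cells), with medians of -0.21 and 0.05. The comparisons share libraries, and no test of the list as a whole was made. As the list was chosen with earlier results of these data known, its shares beside those of all genes are a description.

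Among the ligands, wnt9a (ENSDARG00000063437) split the populations into pairs. It had 504, 601 and 476 normalized counts in GFPlow cells and 172 to 318 in β-cells, against 8.47, 0 and 12.6 in GFPhigh and 1.84 to 29.2 in bihormonal cells. The high and the low pair of populations did not overlap. The log2 fold change was -6.18 for GFPhigh over GFPlow (standard error 0.754, adjusted p = 9.43e-06), -5.11 for GFPhigh over β-cells (standard error 0.701, adjusted p = 1.60e-05) and -4.83 for bihormonal over β-cells (standard error 0.502, adjusted p = 3.47e-07). Single libraries set part of the size: these were -6.93 and -5.86 without GFPhigh replicate 3, and -6.11 without bihormonal replicate 6 for the last.

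The ligand gene wnt5b (ENSDARG00000102464) had 59.18, 104 and 89.8 normalized counts in GFPlow cells and at most 9.53 elsewhere. GFPhigh held a single wnt5b read and GFPlow 219, a ratio of 224.4 for GFPlow over GFPhigh with a 95% exact counting interval of 39.9 to 8905. The call between GFPhigh and GFPlow (log2 fold change -7.37, standard error 1.16, adjusted p = 0.000118) was -9.41 without GFPhigh replicate 1. The gene wls (ENSDARG00000009534) for the Wnt carrier followed the same direction, with 943, 1020 and 960 in GFPlow against 254, 139 and 261 in GFPhigh cells (log2 fold change -2.16, standard error 0.322, adjusted p = 7.05e-05). The 4 genes wnt7bb, wnt9a, wnt5b and wls had their highest libraries in GFPlow, which also held the ghrl and duct transcripts given above, and the part of those cells was not tested.

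Among the inhibitors and the receptors that Dickkopf proteins use, kremen1 (ENSDARG00000062579), a Kremen receptor gene, was higher in the GFPhigh and bihormonal cells that held most dkk3b than in β-cells. It had 490, 436 and 300 normalized counts in GFPhigh, 152 to 574 in bihormonal, 159, 212 and 185 in GFPlow and 14.7 to 68.9 in β-cells. Every library of the GFP+ populations lay above every β-cell library. The log2 fold change was 3.27 for GFPhigh over β-cells (standard error 0.349, adjusted p = 5.87e-07) and 3.08 for bihormonal over β-cells (standard error 0.313, adjusted p = 2.51e-07).

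The secreted Wnt inhibitor gene wif1 (ENSDARG00000005541) had a different pattern, with GFPhigh, bihormonal and β-cell libraries overlapping. It had 3544, 2683 and 5120 normalized counts in GFPhigh, 3410 to 7070 in bihormonal and 3193 to 4877 in β-cells, and 558, 594 and 1050 in GFPlow. It was higher in GFPhigh than in GFPlow by 2.37 on the log2 scale (standard error 0.321, adjusted p = 2.78e-05). Another secreted inhibitor gene, sfrp1a (ENSDARG00000035521), ran the other way, with 85.8 to 126.9 in GFPlow and at most 3.84 elsewhere. Its log2 fold change for GFPhigh over GFPlow was -6.85 (standard error 1.26, adjusted p = 0.000571).

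The gene ENSDARG00000068892, named SOSTDC1 after the human gene for a secreted antagonist of BMP and Wnt ligands, was highest in bihormonal cells. It had 45.9 to 575 normalized counts there, 1.83 to 17.7 in β-cells, 6.05, 0 and 14.7 in GFPhigh and 0 in all 3 GFPlow libraries. All bihormonal libraries lay above all others. The log2 fold change over β-cells was 4.98 (standard error 0.730, adjusted p = 4.46e-05), or 4.02 when bihormonal replicate 5 was left out and 5.90 when β-cell replicate 7 was. Over GFPhigh it was 4.53 (standard error 1.04, adjusted p = 0.0348), a call that was lost without bihormonal replicate 4 or 5 or GFPhigh replicate 1 or 2, on library totals, with either block and in a fit of only these populations. The adjusted p ran from 0.00012 to 0.285 over the alternatives, and the log2 fold change was 5.74 without GFPhigh replicate 3 and 3.56 without bihormonal replicate 5. Both dkk3b and SOSTDC1 had their highest means in bihormonal cells, but dkk3b overlapped GFPhigh cells there and SOSTDC1 did not. The inhibitor-related gene apcdd1l (ENSDARG00000075557) is counted among the target genes of the list. It had 489, 415 and 327 normalized counts in GFPlow, 43.6, 11.8 and 6.32 in GFPhigh, 0 to 5.01 in bihormonal and 0 to 3.37 in β-cells. Its log2 fold change was -4.32 for GFPhigh over GFPlow (standard error 0.703, adjusted p = 0.000165), or -5.49 without GFPhigh replicate 1. For GFPhigh over β-cells it was 5.08 (standard error 0.762, adjusted p = 4.69e-05), or 3.91 without GFPhigh replicate 1 and 6.33 without β-cell replicate 1.

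**Figure D4:**
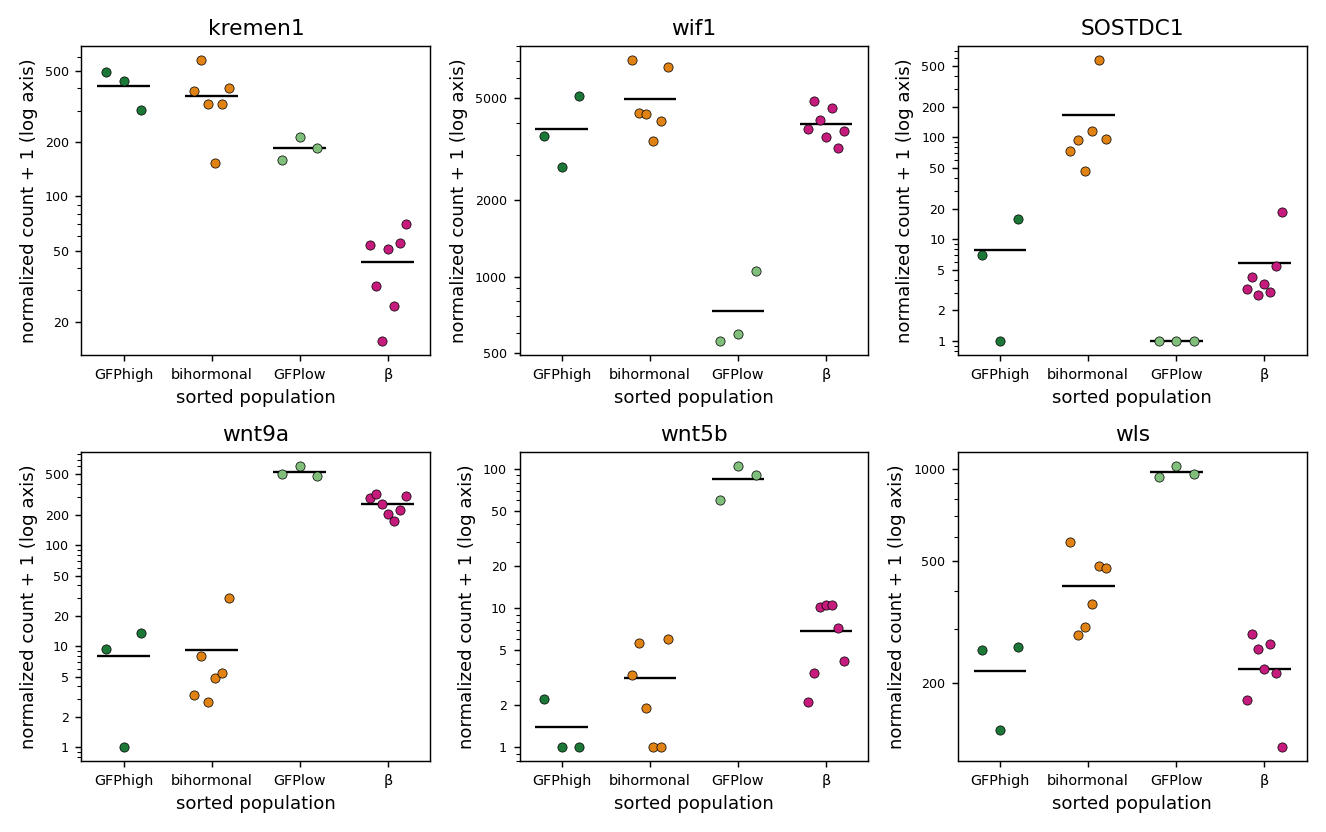
Normalized counts plus 1 (log axes) of 6 further Wnt genes in each library, by sorted population, with horizontal lines at the group means. The receptor gene kremen1 is low in β-cells, wif1 is low in GFPlow, SOSTDC1 is high in bihormonal cells, wnt9a is high in GFPlow and β-cells, and wnt5b and wls are highest in GFPlow.

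Inside the cell, apc2 and gsk3bb of the β-catenin degradation complex were higher in GFPhigh than in β-cells, and the other tested genes of the complex were not called. The scaffold gene apc2 (ENSDARG00000063007) had 638, 1010 and 503 normalized counts in GFPhigh and 44.8 to 114 in β-cells (log2 fold change 3.29, standard error 0.320, adjusted p = 1.68e-07). In bihormonal cells apc2 had 182 to 536, above all β-cell libraries (log2 fold change 2.08, standard error 0.281, adjusted p = 1.03e-05). The kinase gene gsk3bb (ENSDARG00000052468) had 435, 368 and 299 in GFPhigh and 36.6 to 111 in β-cells (log2 fold change 2.56, standard error 0.381, adjusted p = 4.29e-05). The β-catenin gene ctnnb1 (ENSDARG00000014571) itself had 8232, 13080 and 6742 in GFPhigh and 2391 to 4147 in β-cells (log2 fold change 1.59, standard error 0.255, adjusted p = 0.000102). Of the rest of the complex, apc had a log2 fold change of -0.08 (adjusted p = 0.746), GSK3B (ENSDARG00000017803) of -0.35 (adjusted p = 0.227), axin1 of 0.46 (adjusted p = 0.110) and axin2 of 0.81 (adjusted p = 0.0745). GSK3A (ENSDARG00000015681) had 0.85 with an adjusted p of 0.0091, below the fold of 2 set for a call. The other GSK3A gene (ENSDARG00000029501) had 0.55 (adjusted p = 0.167). Among further cytoplasmic genes, amer1 had 0.49 (adjusted p = 0.0296) and csnk1a1 -0.16 (adjusted p = 0.4995). Of 18 cytoplasmic genes tested, 5 were called between GFPhigh and β-cells, all higher in GFPhigh, as were all 5 called of 12 receptor genes, where 10.4% of all genes tested were called higher in GFPhigh.

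Between GFPhigh and GFPlow cells 4 of 9 nuclear and 2 of 5 target genes were called, where 15.7% of all genes were. The nuclear calls were 2 higher in GFPhigh (bcl9 and bcl9l) and 2 higher in GFPlow, and the target calls (apcdd1l and ccnd1) were higher in GFPlow. Among the roles with more genes tested, 4 of 18 cytoplasmic genes were called, all higher in GFPhigh, and 0 of 12 receptor genes. The transcription factor gene tcf7l1b (ENSDARG00000007369) had 123, 125 and 148 normalized counts in GFPlow and at most 4.84 in GFPhigh cells (log2 fold change -6.01, standard error 1.09, adjusted p = 0.000495), or -7.61 without GFPhigh replicate 1. The cyclin D1 gene ccnd1 (ENSDARG00000101637) had 16.9, 0 and 7.37 in GFPhigh, 58.7 to 406.5 in bihormonal, 251 to 333 in GFPlow and 30.3 to 223 in β-cells. Its log2 fold change was -5.21 for GFPhigh over GFPlow (standard error 0.865, adjusted p = 0.0002), or -6.26 without GFPhigh replicate 1. For GFPhigh over β-cells it was -3.59 (standard error 0.787, adjusted p = 0.00227), or -4.64 without GFPhigh replicate 1. For bihormonal over GFPhigh cells it was 4.62 (standard error 0.817, adjusted p = 0.00927). That call was lost with either block, in a fit of only these populations and without GFPhigh replicate 2. With the library set as a block, set 2 with GFPlow replicate 1 does not enter the difference between GFPhigh and GFPlow. The calls of wif1, wls, wnt5b and wnt9a for GFPhigh over GFPlow were kept under this block. Other calls were lost, among them that of ccnd1 and those of dkk3a, tcf7l1b and apcdd1l, whose folds stayed large. The log2 fold change there was -7.10 for dkk3a (adjusted p = 0.0544), -8.22 for tcf7l1b (adjusted p = 0.0548) and -7.11 for apcdd1l (adjusted p = 0.11).

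**Figure D5:**
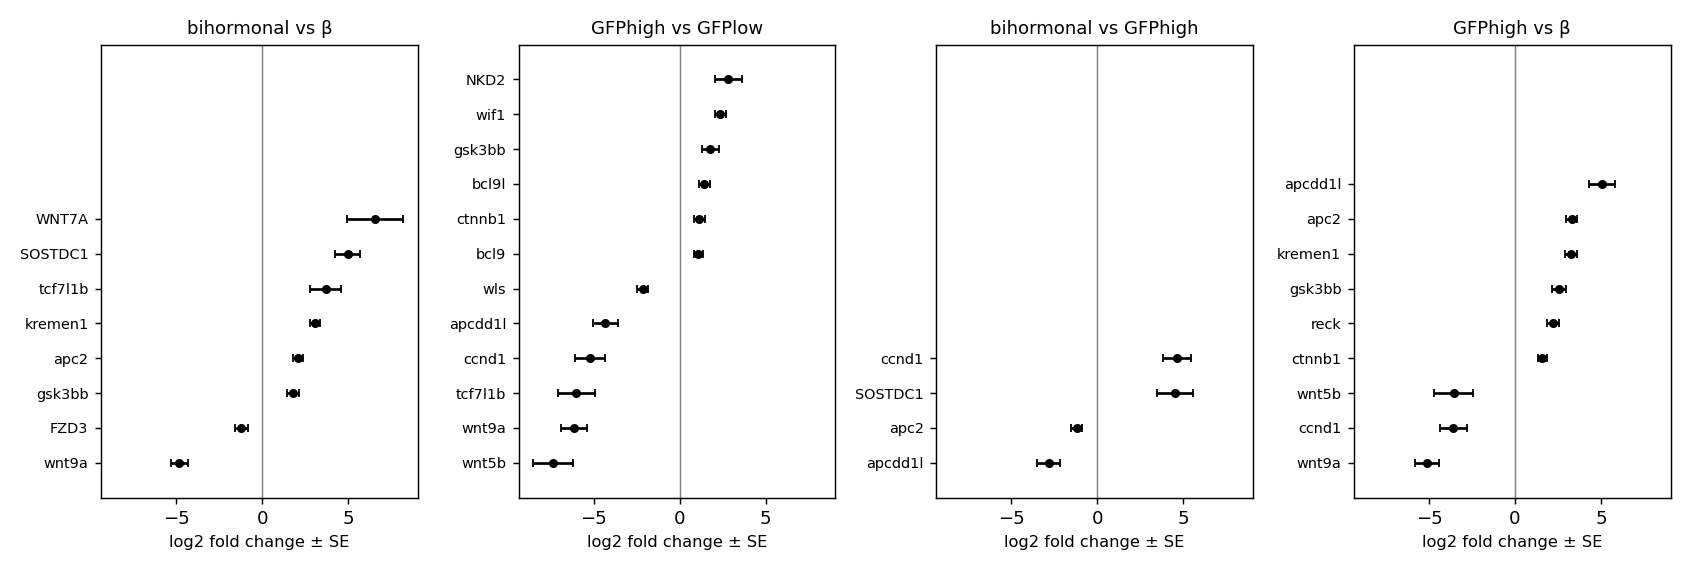
Log2 fold changes with standard errors (bars) of up to 6 called Wnt list genes per direction with the smallest p in each of the 4 comparisons. Genes right of the line are higher in the first population of the panel title, and bihormonal against GFPhigh cells has 4 such genes while GFPhigh against GFPlow cells has 12.

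The low-count filter left out Wnt genes that were counted mainly in GFPlow cells, as the filter averages over all 19 libraries. Of the 55 list genes not tested, 6 averaged at least 10 in some population, and all 6 were highest in GFPlow. Over all genes, 1331 untested genes averaged at least 10 in some population, and 48.8% of them were highest in GFPlow. Of the same genes, 19.8% were highest in GFPhigh, also of 3 libraries, 17.7% in bihormonal and 13.7% in β-cells. As GFPlow leads over all genes too, the count is not read as a result about Wnt genes. The ligand gene wnt6b had 51.9, 20.4 and 35.6 normalized counts there and at most 2.32 in any other library, and wnt10a had 15.7, 6.79 and 15.7 and at most 0.917. The R-spondin gene rspo3, for an enhancer of Wnt signalling, had 60.4, 28.1 and 37.1, and the receptor gene ror1 had 33.8, 13.6 and 58.5. The gene notum1b, for an enzyme that removes the lipid from Wnt ligands, had 51.9, 62.0 and 5.70 and at most 0.917 elsewhere. These 5 genes and dvl2 were noticed after their values were seen, and, like wnt7bb, they were highest in the libraries with the duct and ghrl transcripts. Among the tested list genes, dkk3a, wnt5b, sfrp1a, tcf7l1b, tcf7l2 and apcdd1l passed the filter only through GFPlow, where they were high. SOSTDC1 (ENSDARG00000068892) and WNT7A (ENSDARG00000044827) passed it only through bihormonal cells. The calls of these genes are therefore given as a description.

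The genes whose levels were most like those of dkk3b and wnt7bb were ranked by the Pearson correlation of log2 CPM over the 19 libraries. These libraries form 4 populations, so the values are a description. For dkk3b the 5 highest were sst1.1 (r = 0.96), MDK (ENSDARG00000036036, r = 0.96), named after the human growth factor midkine, PYY (ENSDARG00000035832, r = 0.96), after the peptide hormone, the dopamine receptor gene drd4-rs (ENSDARG00000001912, r = 0.95) and BDNF (ENSDARG00000018817, r = 0.95), after the neurotrophin. The BDNF gene averaged 1899 in GFPhigh, 2674 in bihormonal, 200.4 in GFPlow and 7.91 in β-cells, so its population means had the same order as those of dkk3b. The 3 lowest were ITGA9 (ENSDARG00000032435, r = -0.97), after an integrin subunit, SEPTIN9 (ENSDARG00000103900, r = -0.96), after a cytoskeletal GTPase, and CITED2 (ENSDARG00000030905, r = -0.95), after a transcriptional co-regulator. The ITGA9 gene averaged 321 in β-cells and 2.26 in GFPhigh cells.

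For wnt7bb the 5 highest were the myosin gene myo10l1 (ENSDARG00000074723, r = 0.96), the gene areg (ENSDARG00000076853, r = 0.94) for the EGF receptor ligand amphiregulin, the RNA-binding protein gene rbm11 (ENSDARG00000090202, r = 0.93), DHRS1 (ENSDARG00000054300, r = 0.92), after a dehydrogenase, and FKBP10 (ENSDARG00000099183, r = 0.92), after a prolyl isomerase of the endoplasmic reticulum. The amphiregulin gene areg averaged 65.9 in GFPlow and at most 4.03 elsewhere. The 3 lowest were mlxipl (ENSDARG00000104054, r = -0.95), which codes for a glucose-responsive transcription factor, ENSDARG00000116937 (r = -0.95), which has no symbol, and GPR142 (ENSDARG00000102491, r = -0.94), after a receptor for amino acids. The mlxipl gene averaged 338.5 in GFPlow, 1870 in β-cells, 2133 in bihormonal and 3287 in GFPhigh cells.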

How the data were processed

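Sorted islet cells were sequenced from SMART-Seq2 cDNA in 19 libraries. The authors used STAR with the GRCz11 genome and featureCounts, and the raw counts per gene were taken as deposited. For STAR and featureCounts, the version is not given in the sources used here. Groups came from the sample labels. Counts were scaled with TMM, and a single edgeR quasi-likelihood model with 1 mean per population was fitted to all 19 libraries. The 14693 genes that averaged 10 or more normalized counts were tested, and p-values were adjusted over all of them (Benjamini-Hochberg). The study describes DESeq2 with the same filter and thresholds, which was run as an alternative. Standard errors were taken from the fold change and its F statistic. Correlations used log2 CPM with a prior count of 2.

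The genes and lists were chosen with earlier results of these data known. Genes to name were dkk3b, wnt7bb, every dkk and wnt7 gene, reck, adgra2, up to 6 called Wnt list genes per direction and comparison with the smallest p, the 5 highest and 3 lowest correlates of dkk3b and of wnt7bb, and sst1.1, ins, sst2 and hhex. Which of these to describe, and a few list genes outside this rule, were chosen after their values were seen. Marker lists of other cell types were summed. The study calls the libraries of a cell type independent biological replicates, and p-values measure the spread between these libraries. Which fish went into which library is not stated. The library totals had a median of 10851802 (range 5599246 to 18077658). As PCR copies were not marked by molecular identifiers, intervals cover counting error only. How reads were split between paralogs was set by the authors' counting. Symbols came from a gene name table that pairs 29178 of the 31901 IDs with a symbol, human symbols in capitals. No sequence or coordinate is given. Alternatives were DESeq2's Wald test, its size factors, library totals alone, no filter, a filter within any population, the replicate number or library set as a block, only the 2 populations compared, and each library left out. The model was tested on simulated data. Versions were edgeR 4.0.16 and DESeq2 1.42.0 under R 4.3.3.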

Additional observations from a re-analysis of the deposited data

Results flagged for a closer look

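Among 44 sets of 6 bihormonal or 7 β-cell libraries, over 22 Wnt genes, 9 held a library far from the others by Dixon's test. Neither dkk3b nor wnt7bb was among them. Chance flags about 1 in 20 sets of normal values. Untransformed counts near 0 need not follow that rate, so no excess over chance is read from the number flagged. In bihormonal replicate 5, WNT7A (ENSDARG00000044827) had 403 normalized counts, while the other 5 libraries had 0 to 2.50, and SOSTDC1 (ENSDARG00000068892) had 575, while the others had 45.9 to 114. In bihormonal replicate 6, wnt9a had 29.2, against 1.84 to 6.97, and tcf7l1b had 17.5, against 0 to 2.75. In bihormonal replicate 2, NKD2 (ENSDARG00000055271) had 144, against 8.97 to 52.0, and bcl9l had 308.8, against 145 to 186.2. In β-cells, SOSTDC1 had 17.7 in replicate 7, against 1.83 to 4.43, wnt7ba had 19.7 in replicate 5, against 4.88 to 9.53, and apcdd1l had 3.37 in replicate 1, against 0 to 0.866.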

How the results depend on the processing

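The counts of called Wnt genes were 10 (8 to 15 over the alternatives) for bihormonal against β-cells, 17 for GFPhigh against GFPlow, 4 for bihormonal against GFPhigh and 16 for GFPhigh against β-cells. For GFPhigh against GFPlow, 26 were called with no filter (8 higher in GFPhigh, 18 higher in GFPlow, of 107 tested) and 6 under the library set block. For bihormonal against GFPhigh, 1 was called on library totals and 0 by edgeR with the replicate block, the library set block, and only these populations in the fit, where 13, 9 and 16 had an unadjusted p under 0.05. This comparison ranged from 0 without GFPhigh replicate 2 (6 at an unadjusted p under 0.05) to 7 without bihormonal replicate 2, and gave 1 without GFPhigh replicate 1 or bihormonal replicate 4 or 5. The folds of the 4 genes kept their direction there, ccnd1 from 4.05 to 5.66 on the log2 scale over all alternatives. For GFPhigh against β-cells the replicate block gave 10. The labels share replicate numbers, and over 21 pairs of libraries with the same number the correlation of deviations was -0.26 to 0.13. Pairs with different numbers were not set beside these, so whether the numbers pair the libraries cannot be told from them. On library totals the dkk3b mean of GFPhigh was 131670 in place of 143230 and the wnt7bb mean of GFPlow 564.6 in place of 423, and the shift in the median over all genes was -0.64, -0.54, -0.24 and -0.39 in the comparisons as ordered above. Of 34 called values of named genes, 17 kept their call in every alternative and 0 changed direction. WNT7A (ENSDARG00000044827) between bihormonal and β-cells had a log2 fold change of 6.57 and of 0.10 without bihormonal replicate 5. The causes were not tested. In GFPhigh and bihormonal cells wnt7bb rests on 7 to 50 reads per library, which limits what can be said of its lower levels.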
